A study of Mus musculus with 14 samples.

Results

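The 4 miRNA genes described here, Mir142, Mir150, Mir155 and Mir223, are known for their expression in blood cells, and they were followed along the mouse epididymis. Their 5 mature miRNAs were chosen by name: both arms of miR-142, which the whole tissue table calls miR-142a and the epithelial table miR-142, together with miR-150-5p, miR-155-5p and miR-223-3p. All 5 were listed in each table, among 900 mature miRNAs for whole tissue and 677 for epithelial cells. Small RNA had been sequenced from 3 epididymal regions (caput, corpus, cauda) of male Swiss mice of 8 weeks, whose vasculature was perfused with PBS before dissection to limit blood. Whole tissue gave 8 libraries (3 caput, 2 corpus and 3 cauda). Isolated epithelial cells, obtained by flushing out spermatozoa, digesting the tissue with trypsin and collagenase and leaving the attached fibroblasts and muscle cells on the plate, gave 6 libraries, with 2 per region. No treatment or genetic change was applied, and RNA of several mice was pooled for each library, of more mice for epithelial cells than for whole tissue. The labels do not say whether the libraries of a region came from separate pools of mice, and the study's text calls them both biological and technical replicates. Its methods describe a pair of pooled replicates per region, sequenced in triplicate, whereas whole tissue has 3 caput and 3 cauda libraries, so the p-values given here may measure only technical spread.

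A miRNA is cut from a hairpin precursor, and the strand kept from either arm (5p or 3p) guides silencing proteins to messenger RNAs that pair with its seed, the bases near its 5′ end. miR-142 is made by cells of all blood lineages and is rarely found outside them. miR-150 is abundant in mature B, T and natural killer lymphocytes, where it represses the transcription factor Myb. miR-155 is induced when lymphocytes and macrophages are activated, and miR-223 is abundant in neutrophils and other myeloid cells. The epididymis is known to hold resident macrophages, dendritic cells and lymphocytes within and around its epithelium.

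The mature sequences of the members are printed because their seeds, which decide the messenger RNAs they pair with, tell them apart. Sequences and positions are those of RefSeq on GRCm38.p6, printed 5′ to 3′ with bases 2 to 8, the seed, in capitals. RefSeq's table matched 4 of the 5 members, and miR-150-5p is given by name.
miR-142a-5p: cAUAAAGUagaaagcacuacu
miR-142a-3p: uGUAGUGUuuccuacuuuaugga
miR-155-5p: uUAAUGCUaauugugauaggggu
miR-223-3p: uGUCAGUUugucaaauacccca
The 4 seeds all differed, and 0 of the other mature mouse miRNAs in the reference, which holds 1679 names, carried any of them. The hairpin of Mir142 is printed with both arms in capitals, because the arms leave the same precursor and their ratio is followed in each library.
Mir142: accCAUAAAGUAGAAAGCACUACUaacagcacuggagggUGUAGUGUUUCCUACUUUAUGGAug
On the plus strand, miR-142a-5p lies at chr11:87756867-87756887 and miR-142a-3p at chr11:87756903-87756925. The GENCODE annotation of the same build places Mir142 within the noncoding gene Mir142hg, outside its exons, and opposite Mir142b, whose products neither table listed. miR-155-5p lies at chr16:84714143-84714165, in an exon of the noncoding gene Mir155hg, and miR-223-3p at chrX:96242884-96242905, in an exon of F630028O10Rik. Mir150, at chr7:45121757-45121821, overlapped no other annotated gene.

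Whole tissue libraries held 1243398 to 2135501 counts and epithelial libraries 89039 to 362867, so the same level gave fewer counts in epithelial cells. Levels are given as CPM (counts of a miRNA per 1e+06 counts of its library) after scaling by TMM. This method assumes that most miRNAs are alike between libraries. For levels it was applied within each preparation, so levels of different preparations are not on a joint scale. A mean count above 10 over the libraries of a region was needed to call a miRNA identified there. All 5 members were identified in the cauda of whole tissue. miR-155-5p was not identified in the caput or corpus of whole tissue, and in epithelial cells only miR-142-5p and miR-150-5p were identified. The labelled epithelial cells also carried miRNAs typical of other cells. The summed level of 4 muscle miRNAs was 144764 to 337075 CPM. Most of that sum was miR-143-3p alone, at 140168 to 316996 CPM. The 5 epithelial miRNAs of the miR-200 family summed to 13408 to 18642 CPM. Such sums of reads are not shares of cells. The study judged the cells highly enriched in epithelium by androgen receptor staining and immunoblotting, and detected no sperm markers. Ligation captures different miRNAs unequally, so the order of levels between miRNAs is an order of reads.

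miR-142a-5p carried most of the reads of the 5 members. It had 843, 957 and 1049 CPM in the 3 caput libraries of whole tissue, 953 and 1229 CPM in the 2 corpus libraries, and 1731, 1729 and 1671 CPM in the 3 cauda libraries. The cauda libraries all lay above those of the other regions, whereas caput and corpus overlapped. By mean level it stood at rank 65 of the 312 miRNAs identified in the caput, 58 of 304 in the corpus and 40 of 325 in the cauda. Its arm partner miR-142a-3p had 36, 41.4 and 35.1 CPM in the caput, 50.1 and 42.0 CPM in the corpus, and 61.8, 83.1 and 81.4 CPM in the cauda. Here no region overlapped another, although the lowest corpus library was close to the highest caput library.

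miR-150-5p, the lymphocyte miRNA, had a different pattern. Its level in whole tissue was 52.7, 50.4 and 59.8 CPM in the caput, 134 and 147 CPM in the corpus and 89.6, 120 and 170 CPM in the cauda. Every corpus and cauda library was above every caput library, and the cauda libraries ranged from below to above both corpus libraries.

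The myeloid miR-223-3p had 27.7, 16.6 and 14.3 CPM in the caput, 20.2 and 28.9 CPM in the corpus and 60.7, 41.2 and 56.6 CPM in the cauda of whole tissue. Caput and corpus overlapped and the cauda lay apart. The activation-induced miR-155-5p was the rarest, with counts of 10, 0 and 3 (caput), 3 and 5 (corpus) and 10, 14 and 24 (cauda). The caput library with 0 of 1724443 counts allows a level of up to 1.74 CPM. Like the other floors and counting intervals given here, this is taken per library total without TMM scaling. It covers counting error only. The cauda level of miR-155-5p was 9.30 ± 4.54 CPM (SD, n = 3), and its lowest cauda library, at 5.15 CPM, lay under the highest caput library at 6.43 CPM. The order of mean levels was the same in every region of whole tissue, from miR-142a-5p through miR-150-5p, miR-142a-3p and miR-223-3p to miR-155-5p. Neighbours in that order did not overlap within a region, but in the cauda the lowest library of miR-142a-3p (61.8 CPM) nearly met the highest of miR-223-3p (60.7 CPM).

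**Figure D1:**
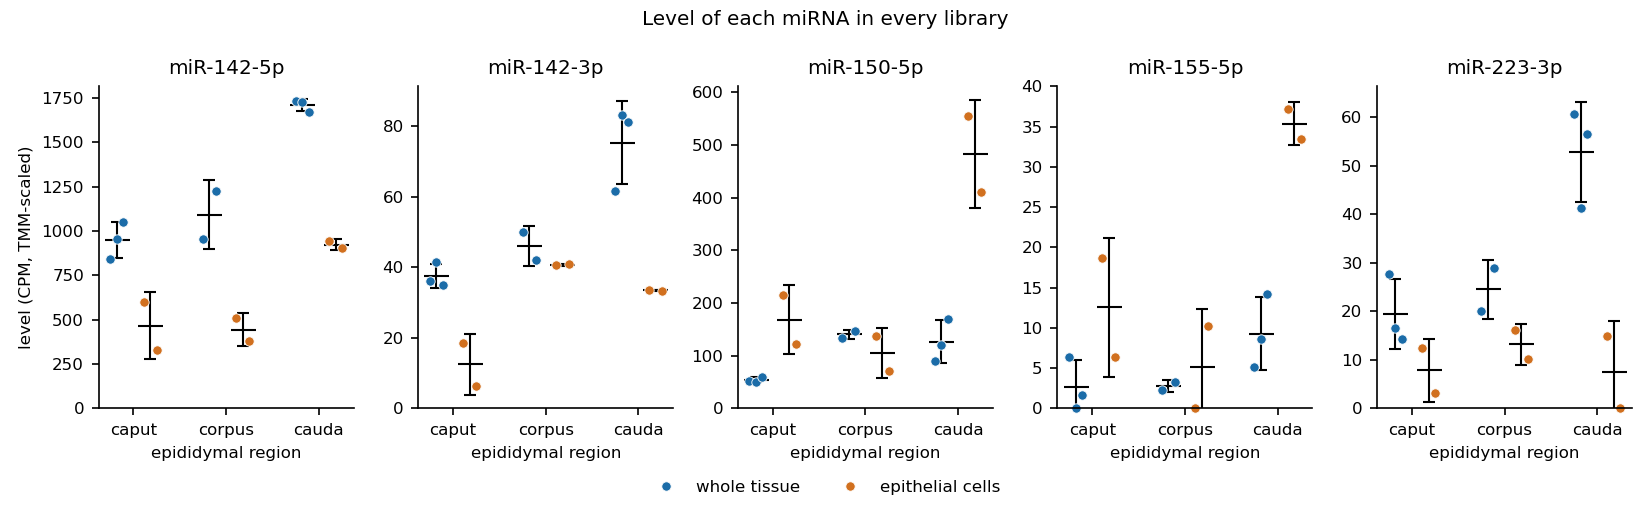
Level of each miRNA in CPM (TMM-scaled, linear axes starting at 0, a scale of its own in each panel) by region, with 1 point per library for whole tissue (blue) and epithelial cells (orange). Horizontal bars are means and error bars SD between libraries, cut off at 0. The 3 whole tissue cauda libraries of miR-142-5p lie at 1671 to 1731 CPM, and miR-150-5p and miR-155-5p are highest in the epithelial cauda libraries. Each preparation was scaled on its own, not jointly.

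From caput to cauda, miR-150-5p and miR-223-3p rose in whole tissue, and the arms of miR-142a lay at the edge of a 2-fold change. A miRNA is said to rise or fall when limma-voom gave a Benjamini-Hochberg adjusted p below 0.05 (FDR) over all miRNAs tested and a change of at least 2-fold. By that rule 53.2% of the 355 miRNAs tested changed between these regions, and 27.9% of those tested rose. The median log2 change of all was -0.05. Of the 4 members identified in both regions 2 rose, too few to be set apart from the 27.9%. That share also covers miRNAs identified in only 1 of the regions. miR-223-3p rose by a log2 change of 1.49 (SE 0.27, adjusted p = 0.000554). miR-150-5p rose by 1.16 (SE 0.23, adjusted p = 0.000944). miR-155-5p, identified in the cauda and not in the caput, entered the test only through the region where it was high, so its log2 change of 2.35 (SE 0.83, adjusted p = 0.0245) is given as a value and not counted as a rise. It missed the FDR without caput replicate 2 (1.37, adjusted p = 0.0902), without caput replicate 3 (2.56, adjusted p = 0.0581) or without cauda replicate 2 (2.36, adjusted p = 0.0549), while it was 3.46 without caput replicate 1. The DESeq2 Wald test did not call it either (1.86, adjusted p = 0.0984). Both arms of miR-142 passed the FDR and were just short of 2-fold, with a log2 change of 0.85 (SE 0.11, adjusted p = 6.42e-05) for miR-142a-5p and 0.99 (SE 0.17, adjusted p = 0.000401) for miR-142a-3p. The FDR alone was met by 79.2% of the miRNAs tested. Scaling by library totals, which moved the median of all miRNAs to 0.30, took both arms past 2-fold (1.20 and 1.34). miR-142a-3p was past it in 6 of 9 other settings and in 6 of the 8 fits without a library, with log2 changes of 0.93 to 1.34, so that its call turned on small differences. miR-150-5p was below 2-fold without cauda replicate 3 (0.92, adjusted p = 0.000852).

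The steps between neighbouring regions were tested in the same way, without a test of 1 member against another. From caput to corpus, where 29.9% of 334 miRNAs changed, miR-150-5p was the 1 member that rose (14.1% of all did), by 1.37 (SE 0.25, limma-voom adjusted p = 0.00111). Its call held without each of the 8 libraries in turn, with log2 changes of 1.36 to 1.5. miR-142a-5p (0.19, 95% interval -0.09 to 0.48, adjusted p = 0.223), miR-142a-3p (0.29, interval -0.17 to 0.76, adjusted p = 0.251) and miR-223-3p (0.39, interval -0.37 to 1.15, adjusted p = 0.348) did not pass, and miR-155-5p was too rare to be tested.

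From corpus to cauda, where 27.3% of 341 miRNAs changed, miR-223-3p was the 1 member that rose (14.4% of all did), by 1.1 (SE 0.30, limma-voom adjusted p = 0.0116). The call was lost without corpus replicate 1 (0.88, adjusted p = 0.0904) and without cauda replicate 1 (0.98, which is under 2-fold). The arms of miR-142a passed the FDR, as did 54.3% of all, with log2 changes of 0.66 (adjusted p = 0.00157) for 5p and 0.70 (adjusted p = 0.0118) for 3p. For miR-150-5p the log2 change was -0.21 (interval -0.72 to 0.30, adjusted p = 0.432), and for miR-155-5p, again identified only in the cauda, 1.49 (interval -0.41 to 3.38, adjusted p = 0.151).

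**Figure D2:**
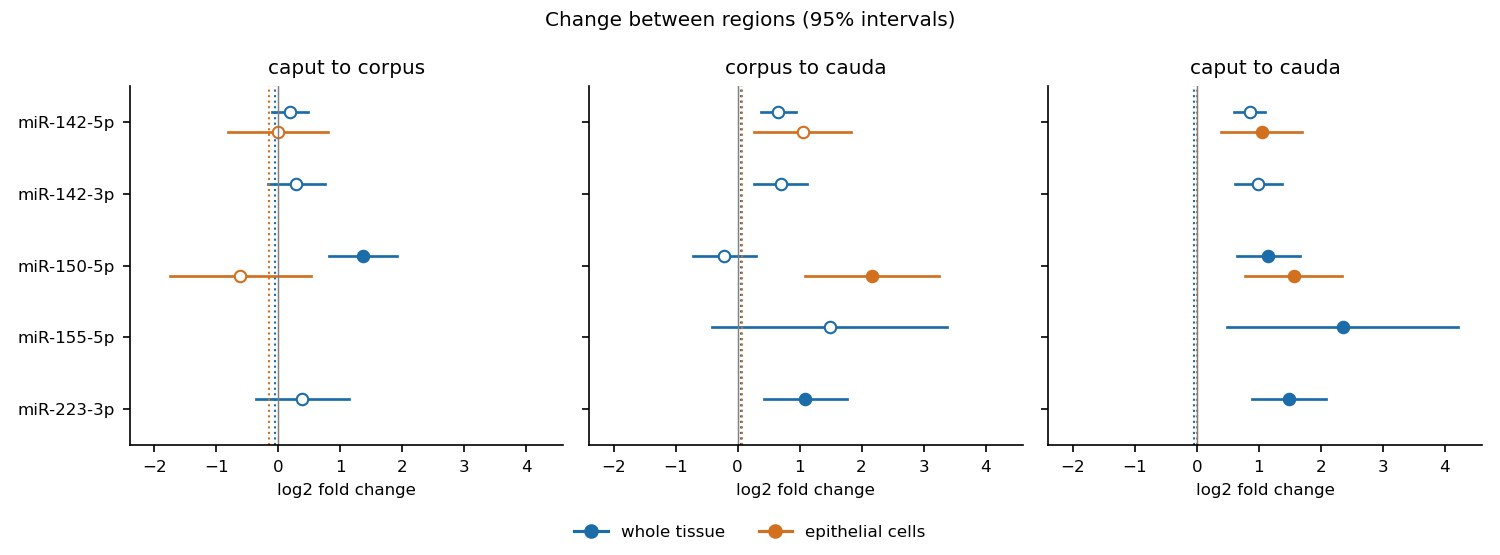
Log2 fold change of each miRNA between regions (limma-voom, lines are 95% intervals) in whole tissue (blue) and epithelial cells (orange). Filled points were called (FDR below 0.05 and at least 2-fold), open points were tested and not called, a missing point was not tested, and dotted lines mark the median of all miRNAs tested. In whole tissue miR-150-5p was called from caput to corpus and miR-223-3p from corpus to cauda. The filled point of miR-155-5p from caput to cauda is a value only and not counted, because miR-155-5p was not identified in the caput.

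The miRNAs of other cell types also changed along whole tissue, in both directions, as did 53.2% of all 355 tested from caput to cauda. Of the red blood cell list, miR-451a (2.19) and miR-486a-5p (3.89) rose from caput to cauda, while miR-144-3p and miR-144-5p, with log2 changes of 3.13 and 2.35, were identified in the cauda and not in the caput and are not counted. The 4 summed to 87.3 to 97.8 CPM in the caput, 238 to 276 CPM in the corpus and 846 to 1324 CPM in the cauda, with none at 0 in any region. The 4 muscle miRNAs (miR-143-3p, miR-145a-5p, miR-133a-3p and miR-1a-3p) also all rose. Their sum, mostly miR-143-3p, was 53170 to 65899 CPM in the caput and 223245 to 249545 CPM in the cauda. The 2 endothelial miRNAs, the arms of miR-126a, did not pass the test in either direction, at 14776 to 18250 CPM in the caput and 16398 to 17319 CPM in the cauda. Of the fibroblast list, miR-199a-3p and miR-199b-3p, which have identical values in every group and count as 1 measurement, rose by 1.01 (limma-voom adjusted p = 3.23e-06), and miR-199a-5p and miR-214-3p were not called. The list summed to 1882 to 2157 CPM in the caput and 3338 to 3903 CPM in the cauda. The 5 epithelial miRNAs all fell. From caput to corpus, where miR-150-5p rose, so did miR-451a (1.23), miR-486a-5p (1.51) and the fibroblast miRNA miR-214-3p (1.02). The epithelial miR-429-3p fell there (log2 change -1.59), and 0 of the endothelial and muscle lists were called. From corpus to cauda, where miR-223-3p rose, so did miR-486a-5p (2.38), miR-511-3p (1.05) and 2 of the 4 muscle miRNAs. In that step 2 of the 5 epithelial miRNAs fell, and 0 of the endothelial and fibroblast lists were called. The part of these cell types in the members' levels was not tested, and fewer cells of a type and less RNA per cell cannot be told apart in bulk libraries.

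Of 15 further blood and immune cell miRNAs, 6 could be tested from caput to cauda in whole tissue, and 3 of them rose while 0 fell. Among all 355 miRNAs tested there, 53.2% changed and 27.9% rose. miR-342-3p, which lymphoid and myeloid cells share, rose by 1.08 (limma-voom adjusted p = 1.92e-05), the macrophage miRNA miR-511-3p rose by 1.74 (adjusted p = 6.54e-05) and miR-132-3p rose by 1.89 (adjusted p = 0.00208). The remaining 3 were not called: miR-146a-5p, induced by inflammatory signals, with -0.21 (adjusted p = 0.43), miR-181a-5p with -0.32 and miR-181b-5p with -0.12. Their sum, 11126 to 15629 CPM in the caput and 9643 to 10915 CPM in the cauda, was mostly miR-181a-5p, which many tissues make. The partner strands miR-150-3p and miR-223-5p were listed at 0 in all caput and corpus libraries of whole tissue and had at most 2 counts in the cauda. In epithelial cells 5 of the 15 could be tested, and 0 were called in any pair of regions. Among all miRNAs tested, 12.2% changed from caput to corpus, 10.9% from corpus to cauda and 25.9% from caput to cauda.

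Likeness of pattern was measured as the root mean square difference (RMS) of log2 CPM over the 8 whole tissue libraries, each miRNA centred on its own mean, among about 270 miRNAs. The arms of miR-142a differed from each other by 0.23, against a median RMS of 0.66 between miR-142a-5p and the miRNAs compared. Closer still to miR-142a-5p were miR-411-5p (0.17), miR-127-3p (0.17) and miR-501-3p (0.19), and to miR-142a-3p miR-411-5p (0.15), miR-381-3p (0.15) and miR-300-3p (0.17). miR-411-5p, for example, went from 1288 ± 3.82 CPM (SD, n = 3) in the caput to 2697 ± 266 CPM (n = 3) in the cauda. For miR-150-5p the nearest were miR-342-3p (0.29), miR-326-3p (0.30) and miR-199a-3p (0.33). miR-342-3p had 62.6 ± 2.55, 113 ± 6.88 and 133 ± 9.62 CPM in caput (n = 3), corpus (n = 2) and cauda (n = 3). For miR-223-3p they were miR-365-3p (0.24), miR-541-5p (0.26) and miR-409-3p (0.31). miR-155-5p had no near neighbour, the closest being miR-409-5p at 0.90, miR-341-3p at 0.92 and miR-145a-5p at 0.99. The 8 libraries share their regions, so these values describe a common course along the duct and nothing more.

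In epithelial cells miR-142-5p was again the most abundant member. It had 601 and 332 CPM in the 2 caput libraries, 511 and 378 CPM in the corpus and 946 and 903 CPM in the cauda. Both cauda libraries were above all others, and caput and corpus overlapped. miR-150-5p had 215 and 122 CPM in the caput, 138 and 71.5 CPM in the corpus and 555 and 411 CPM in the cauda, again with the cauda apart and the other regions overlapping. The corpus values of miR-150-5p rest on 17 and 7 counts. Without TMM scaling, the summed corpus level of 111 CPM has an exact 95% binomial interval of 71.1 to 165 CPM.

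The remaining 3 members had 10 counts or fewer in every epithelial library. The caput libraries had 6 and 2 counts of miR-142-3p, the corpus libraries 5 and 4 and the cauda libraries 9 and 7. Of miR-155-5p the caput had 6 and 2, the corpus 0 and 1 and the cauda 10 and 7, where its level was 35.3 ± 2.69 CPM (SD, n = 2). The corpus library with 0 of 127111 counts allows up to 23.6 CPM, so that an absence from the corpus cannot be read from it. Of miR-223-3p the caput had 4 and 1, the corpus 2 and 1 and the cauda 4 and 0, and the cauda library with 0 of 179060 counts allows up to 16.8 CPM. Unlike in whole tissue, only miR-142-5p and miR-150-5p kept their place at the top in every region. Neighbours in the order of miR-142-3p, miR-155-5p and miR-223-3p overlapped in the caput, miR-155-5p met miR-223-3p in the corpus, and miR-142-3p met miR-155-5p in the cauda.

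Within epithelial cells only these 2 could be tested, and both rose from caput to cauda. miR-150-5p rose by 1.56 (SE 0.34, limma-voom adjusted p = 0.00901) and miR-142-5p by 1.04 (SE 0.28, adjusted p = 0.0225), in a comparison in which 25.9% of 216 miRNAs changed and 13.9% of those tested rose. Without caput replicate 2 both calls were lost (miR-150-5p 1.20 with adjusted p = 0.0784, miR-142-5p 0.66 with adjusted p = 0.124), and miR-142-5p was also lost without cauda replicate 2 (1.07, adjusted p = 0.0512). For miR-142-5p the change fell below 2-fold with the edgeR quasi-likelihood test (0.99, adjusted p = 0.0325). It also did with no filter on low counts (0.93), with at least 10 counts in every library (0.92) and with TMM over all miRNAs with at least 1 count (0.93). The red blood cell miRNAs miR-451 (1.21) and miR-486-5p (2.72) rose as well, and miR-144-3p, not identified in the caput, had 2.18. The fibroblast miRNA miR-199a-3p, with its identical entry miR-199b-3p, rose by 1.08. The red blood cell list had a sum of 382 to 473 CPM in the caput and 1588 to 2966 CPM in the cauda, and the endothelial miRNAs had 25517 to 35754 CPM in the caput, 13092 to 14321 CPM in the corpus and 46640 to 56668 CPM in the cauda. Their part was not tested.

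From corpus to cauda, where 10.9% of 192 miRNAs changed and 6.77% rose, miR-150-5p rose by 2.17 (SE 0.47, limma-voom adjusted p = 0.0245) and miR-142-5p had a log2 change of 1.05 (interval 0.27 to 1.83, adjusted p = 0.0793). The call of miR-150-5p was lost without caput replicate 2 (adjusted p = 0.0543), corpus replicate 1 (adjusted p = 0.0624) or corpus replicate 2 (adjusted p = 0.0848), with log2 changes of 1.77 to 2.66 over all 6 libraries left out in turn. Both endothelial miRNAs and the red blood cell miRNA miR-486-5p (3.03) rose in the same comparison, miR-451, not identified in the corpus, had 2.23, and 2 of the 5 epithelial miRNAs fell. From caput to corpus, where 12.2% of 205 miRNAs changed, 0 of the 2 were called by limma-voom, edgeR or DESeq2, and 0 had an unadjusted p below 0.05. The log2 change was -0.61 (interval -1.75 to 0.53, adjusted p = 0.411) for miR-150-5p and close to 0 (interval -0.81 to 0.80, adjusted p = 0.99) for miR-142-5p. Both endothelial miRNAs fell there.

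Between preparations, in the joint fit of all 14 libraries over shared names, miR-150-5p was higher and miR-142a-5p lower in epithelial cells of the caput and cauda. The preparation and the table cannot be told apart, and the median log2 difference of all miRNAs tested was -0.18, -0.25 and -0.62 from caput to cauda (-0.11, -0.16 and -0.23 when scaled by library totals), so the differences are best read against these medians. miR-142-3p, miR-155-5p and miR-223-3p were not identified in any region of epithelial cells and entered these tests only through the deeper whole tissue libraries, so their differences are given as values and not counted. In the caput, where 38.5% of 304 miRNAs differed, miR-150-5p was higher in epithelial cells by 1.63 (SE 0.33, limma-voom adjusted p = 0.000881), and miR-142a-5p was lower (-1.04, SE 0.22, adjusted p = 0.00104). The difference of miR-142a-3p was -1.51 (SE 0.41, adjusted p = 0.00587). The call of miR-150-5p was lost without epithelial caput replicate 1 (1.28), where the value of miR-142a-3p was -2.13. The call of miR-142a-5p was lost without epithelial caput replicate 2 (-0.71, under 2-fold), where the value of miR-142a-3p was -0.95. miR-142a-5p was also under 2-fold without tissue caput replicate 3 (-0.93) or when scaled by library totals (-0.98). With a replicate block it was -0.76 (adjusted p = 0.0212), again under 2-fold, and miR-142a-3p missed the FDR (-1.26, adjusted p = 0.0666). For miR-223-3p the difference was -1.15 (interval -2.55 to 0.25, adjusted p = 0.155).

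In the cauda, where 43.7% of 318 miRNAs differed and 33.6% of those tested were lower in epithelial cells, miR-150-5p was again higher by 1.53 (SE 0.26, limma-voom adjusted p = 0.000182), and this call held without each of the 14 libraries, reaching 2.13 without epithelial cauda replicate 2 and 2.15 without tissue cauda replicate 3. miR-142a-5p was lower (-1.35, SE 0.19, adjusted p = 4.21e-05). The differences were -1.53 (SE 0.34, adjusted p = 0.00153) for miR-142a-3p and -3.48 (SE 0.69, adjusted p = 0.000639) for miR-223-3p, which rest on 9 and 7 and on 4 and 0 epithelial counts. Without epithelial cauda replicate 2, the library with no read of miR-223-3p, the difference of miR-223-3p was -1.72 (adjusted p = 0.0583) and that of miR-142a-3p -1.14 (adjusted p = 0.0651), whereas without epithelial cauda replicate 1 miR-223-3p stood at -4.87. miR-142a-5p kept an adjusted p of 0.00639 or less without each library, but in 9 of the 14 such fits, and with library totals (-0.96), it fell under 2-fold. For miR-155-5p the difference was 1.63 (interval 0.11 to 3.16, adjusted p = 0.0587), which missed the FDR here and passed it in 5 of 8 other settings and in 8 of the 14 fits without a library. In the corpus, where 27.7% of 296 miRNAs differed, only miR-142a-5p was called (-1.44, SE 0.28, adjusted p = 0.00122). There miR-150-5p had -0.57 (interval -1.54 to 0.40, adjusted p = 0.324), miR-142a-3p -0.19 (interval -1.06 to 0.67, adjusted p = 0.751) and miR-223-3p -0.64 (interval -2.15 to 0.87, adjusted p = 0.504).

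Lists of other cell types differed between the preparations as well. Of the red blood cell list, both miRNAs that could be tested were higher in the epithelial caput, 0 of 3 were in the corpus and 1 of 4 was in the cauda. Of the endothelial list, the numbers higher were 1 (caput), 0 (corpus) and 2 (cauda) of 2. For the muscle list they were 3, 3 and 1 of 4 in the same order. Of the 5 epithelial miRNAs 1 was lower in the caput, 0 differed in the corpus and 2 were higher in the cauda. In the fibroblast list, miR-199a-3p and its identical entry miR-199b-3p (1.28) and miR-214-3p (1.64) were higher in the caput, whereas miR-199a-5p had -0.98 there and was lower in the corpus (-1.93) and cauda (-2.42). The part of these cells in the members' differences was not tested.

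Of the 15 further immune cell miRNAs 6 could be tested between preparations, of which 3 were higher and 0 lower in the epithelial caput, and 2 were past both limits upwards and 1 downwards in the corpus and in the cauda. miR-146a-5p was higher in epithelial cells by 2.62 in the caput (limma-voom adjusted p = 3.01e-06), 2.52 for the corpus (adjusted p = 4.1e-05) and 3.0 in the cauda (adjusted p = 7.59e-07). miR-132-3p was higher by 4.02 (caput) and 1.21 (cauda), and miR-342-3p by 1.26 in the caput (adjusted p = 0.000182). In the corpus miR-132-3p, with 6 and 11 epithelial counts, was identified in whole tissue only. Its difference of 2.24 there is given as a value. The 1 downwards was the macrophage miRNA miR-511-3p, which had at most 2 counts in any epithelial library and 0 in both of the corpus, and entered the test only through the deeper whole tissue libraries, so no difference is given for it.

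**Figure D3:**
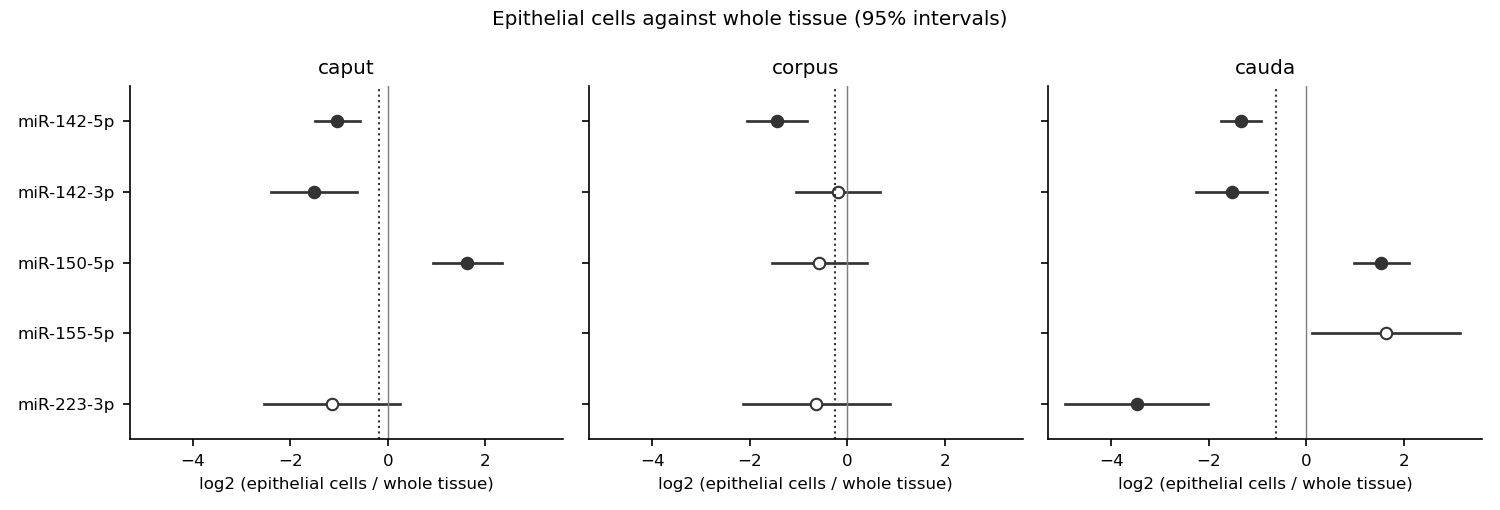
Log2 difference of each miRNA between epithelial cells and whole tissue in the caput, corpus and cauda (limma-voom over 14 libraries, lines are 95% intervals). Filled points passed both limits, open points did not, and the dotted line is the median of all miRNAs tested. Filled points of miR-142-3p and miR-223-3p are values only and not counted, because these were not identified in epithelial cells. miR-150-5p lies at 1.63 in the caput and 1.53 in the cauda, and miR-142-5p below 0 in all 3 regions.

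The counts behind these differences can be set beside those that the tissue level would give at the depth of the epithelial libraries, scaled by library totals. Summed over the 6 epithelial libraries, miR-142-5p had 839 counts where the tissue level gives 1687, miR-142-3p 33 where it gives 71.3 and miR-223-3p 12 where it gives 44.2. miR-150-5p had 366 counts against 129 and miR-155-5p 26 against 7.00. For miR-223-3p most of the gap was in the cauda, with 4 counts against 26.8. For miR-150-5p the excess was in the caput (107 against 32.2) and cauda (235 against 64.1) and not in the corpus (24 against 33.1).

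Ratios between members of 1 library do not depend on any scaling. For every 100 counts of miR-142-5p, whole tissue libraries had 5.26 to 6.25 counts of miR-150-5p (caput), 12.0 to 14.1 (corpus) and 5.17 to 10.2 (cauda). Epithelial caput libraries had 35.8 to 36.9, corpus libraries 18.9 to 27.0 and cauda libraries 45.5 to 58.7. All 6 epithelial libraries were above all 8 of whole tissue, also in the corpus, although the corpus gave the highest ratios in whole tissue and the lowest in epithelial cells.

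Against miR-150-5p, the myeloid miR-223-3p was scarce in epithelial cells. For every 100 counts of miR-150-5p, miR-223-3p had 15.0 to 67.8 counts in whole tissue (median 33.1) and 0 to 14.3 in epithelial cells (median 4.24), and the preparations did not overlap, although the highest epithelial value rests on a single count. Against miR-142-5p it did overlap, with 1.36 to 3.51 counts per 100 in whole tissue and 0 to 3.17 in epithelial cells. miR-155-5p had 0 to 0.847 counts per 100 of miR-142-5p in whole tissue and 0 to 3.94 in epithelial cells, where 5 of the 6 libraries were above every whole tissue library and the sixth was at 0.

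**Figure D4:**
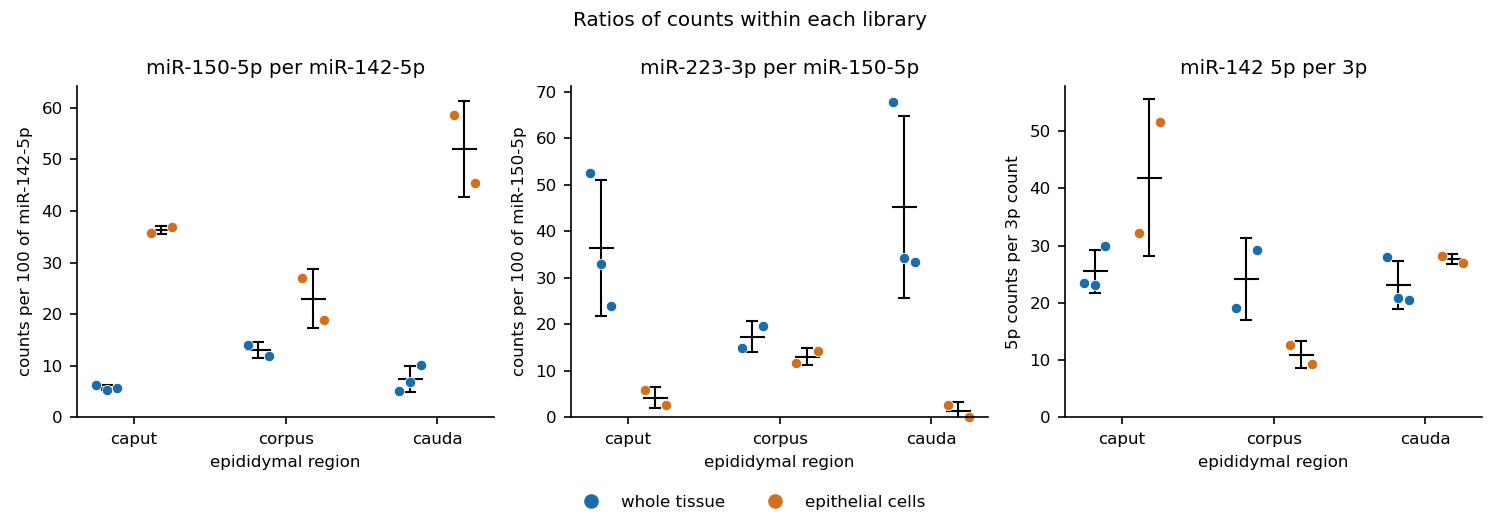
Ratios of counts within each library by region, for whole tissue (blue) and epithelial cells (orange), on linear axes starting at 0. The left and middle panels give counts per 100 counts of the named partner, the right panel 5p counts per 3p count of miR-142, with means and SD. miR-150-5p per miR-142-5p is 5.17 to 14.1 per 100 in whole tissue and 18.9 to 58.7 in epithelial cells.

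The arms of miR-142 kept a strong 5p bias throughout. In whole tissue 19.0 to 29.9 counts of 5p were read per count of 3p (median 23.3), and in epithelial cells 9.25 to 51.5 (median 27.6). The mean log2 ratio of 3p to 5p, with 0.5 added to each count, was -4.57 ± 0.25 (SD, n = 8) in whole tissue and -4.38 ± 0.89 (SD, n = 6) in epithelial cells, a difference of 0.20 that did not exceed the spread (exact two-sided permutation test, p = 0.553). Region by region the difference was -0.48 (caput), 1.26 (corpus) and -0.19 (cauda), and pooled it turned to -0.07 without epithelial corpus replicate 2. The 2 epithelial corpus libraries, with 9.25 and 12.6 counts of 5p per count of 3p, lay below all others, and rest on 4 and 5 counts of 3p.

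Whether the course along the duct differed between the preparations was tested as an interaction in the joint fit. For the change from caput to cauda, 11.8% of 346 miRNAs were called. Of the members identified in both preparations, miR-142a-5p and miR-150-5p, 0 were called by limma-voom, edgeR or DESeq2, and 0 had an unadjusted p below 0.05. The log2 change in epithelial cells relative to whole tissue was -0.31 (interval -0.93 to 0.31) for miR-142a-5p and -0.09 (interval -0.99 to 0.81) for miR-150-5p. The other members, which entered only through whole tissue, had too few epithelial counts for their changes to be read. Similar tests of the neighbouring regions were added after the values had been seen. In these, 1 member, miR-150-5p, differed from caput to corpus (-2.2, limma-voom adjusted p = 0.0475), where 2.15% of 325 miRNAs did, and from corpus to cauda (2.10, adjusted p = 0.032), where 5.12% of 332 did. The first of these was lost in 5 of 8 other settings.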

How the data were processed

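Small RNA libraries of 8 whole tissue and 6 epithelial cell samples were analysed, grouped by GEO's titles, and 0 columns were left out. The authors screened and trimmed single-end reads, mapped the cleaned reads against mm10 and the mature mouse miRNAs of miRBase release 21, and deposited expected counts per mature miRNA. Per the labels, CASAVA 1.8.2 and Bowtie 1.1.1 were among the tools. How reads matching several miRNAs were divided is not given in the sources used here. No member had a fractional value. In the epithelial table the deposited expected counts carry an added 0.001, which was removed. No use of molecular identifiers is stated, so PCR copies may count as separate reads.

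Counts were rounded (at most 0.00337% of a library total) and tested with limma-voom (limma 3.58.1, R 4.3.3) after TMM scaling (edgeR 4.0.16). There was 1 fit per preparation with a mean per region, over miRNAs with a mean count above 10 in a compared region, with Benjamini-Hochberg adjustment over all of them. Preparations were compared in a joint fit of 14 libraries, for which 31 epithelial names were given the letter a to match the other table. Whole tissue to epithelial cells differences are epithelial minus tissue. Confidence intervals are 95%, and floors are 3 counts of a library total, without TMM scaling. Alternatives were edgeR's quasi-likelihood test, DESeq2 1.42.0, other scalings and filters, a replicate block, and leaving out each library. Tests were tried on simulated data first.

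The members, lists and tests were chosen with earlier results of these data known. Named miRNAs are the members, the 3 miRNAs nearest to each in pattern and list members beside which a result stands. In whole tissue, deviations from the region means correlated weakly between same-numbered caput and cauda libraries (r = 0.23, 0.13 and 0.11 over 360 miRNAs). For corpus and cauda r was 0.21 and 0.14, and for caput and corpus 0.0094 and 0.017. Libraries of different numbers were not correlated for comparison, so these values cannot show a pairing, and no label gives a shared batch. Replicates of a region differed by more than counting noise.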

Additional observations from a re-analysis of the deposited data

Results flagged for a closer look

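miR-150-5p stood out because its course through the corpus differed between the preparations in a test of the difference itself. Both tests were added after its values had been seen, so they describe the difference and do not support it independently. From caput to corpus its log2 change was -2.2 in epithelial cells relative to whole tissue (SE 0.56, limma-voom adjusted p = 0.0475), where 2.15% of 325 miRNAs differed. From corpus to cauda it was 2.10 (SE 0.52, adjusted p = 0.032), where 5.12% of 332 miRNAs differed. The levels behind this were scaled within each preparation and not jointly. In whole tissue they were 52.7, 50.4 and 59.8 CPM in the caput, 134 and 147 CPM in the corpus and 89.6, 120 and 170 CPM in the cauda. In epithelial cells they were 215 and 122, 138 and 71.5, and 555 and 411 CPM, where the corpus rests on 17 and 7 counts.

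The first difference passed in 3 of 8 other settings and in 3 of the 14 fits that leave out a library, with adjusted p-values up to 0.243. The second passed in all 8 other settings that could be run and in 12 of the 14 fits, and missed the FDR without epithelial corpus replicate 2 (2.05, adjusted p = 0.087) and without epithelial cauda replicate 1 (1.93, adjusted p = 0.0749), while it was 2.95 without epithelial corpus replicate 1. Both endothelial miRNAs differed in the same 2 tests, lower from caput to corpus and higher from corpus to cauda in epithelial cells. Their part in the difference was not tested. No region had 4 or more libraries, so single libraries were not tested as outliers.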

How the results depend on the processing

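Calls of members rested on few libraries. The counts here are of all members past the FDR and 2-fold, including those that the report gives as values only because they were identified in 1 of the groups compared. Scaling by library totals called 5 members instead of 3 from caput to cauda in whole tissue. In epithelial cells from caput to cauda 2 members were called, against 1 with the edgeR quasi-likelihood test, 1 with no filter on low counts, 1 with TMM over all miRNAs with at least 1 count, and 0 with at least 10 counts in every library, a filter that miR-150-5p did not pass. With that filter 0 instead of 1 were called from corpus to cauda, 2 instead of 4 between preparations in the cauda, and 0 instead of 1 in the corpus to cauda interaction. With names only as the tables give them, which leaves out miR-142, 1 instead of 3 were called between preparations in the caput and 0 instead of 1 in the corpus. The caput to corpus interaction of miR-150-5p lost its call (0 instead of 1) with DESeq2 size factors, library totals, no filter, the stricter filter, names only, and TMM over all miRNAs. Unless the construction named here shows it, the cause was not tested.

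With a replicate block, 1 instead of 3 members were called between preparations in the caput, both arms of miR-142 being lost, and miR-142a-3p in the corpus turned to 0.0071. The block changed no other count of called members, including the 3 called from caput to cauda in whole tissue. In epithelial cells the deviations of same-numbered cauda libraries from those of the other regions correlated below -0.1. With the cauda numbers crossed, 2 members were called from caput to cauda and 2 instead of 1 from corpus to cauda, chosen after seeing the data.

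Without each library in turn, the members called ranged from 2 to 4 from caput to cauda in whole tissue, from 0 to 1 from corpus to cauda in whole tissue and in epithelial cells, from 0 to 2 from caput to cauda in epithelial cells, from 1 to 3 and from 1 to 5 between preparations in the caput and cauda, and from 0 to 1 in each of the 3 interactions. Where an arm kept 1 library, it was assumed to vary like the other groups. The arm difference of miR-142 ranged from -0.0672 to 0.40.

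Values near 0 changed sign. From caput to corpus in epithelial cells miR-142-5p had 0.0502 with the DESeq2 Wald test, 0.0935 with DESeq2 size factors, 0.15 with library totals and 0.0609 with only the 2 regions compared, and -0.39 to 0.45 without a library. In whole tissue from corpus to cauda miR-150-5p ranged from -0.45 to 0.0228. In the caput to cauda interaction, the DESeq2 Wald test gave 0.0024, 0.26 and 0.18 for miR-142a-5p, miR-142a-3p and miR-150-5p. DESeq2 size factors gave 0.0329, 0.32 and 0.24 and library totals 0.0177, 0.31 and 0.24. No filter gave 0.28 for miR-142a-3p and 0.21 for miR-150-5p, and TMM over all miRNAs 0.28 and 0.21. The stricter filter gave 0.0157 for miR-142a-5p and 0.22 for miR-150-5p, and names only 0.39 for miR-150-5p. Without a library, the caput to cauda interaction ranged from -0.64 to 0.48 (miR-142a-5p), -0.58 to 1.02 (miR-142a-3p), -0.40 to 0.67 (miR-150-5p) and -1.95 to 0.20 (miR-155-5p). The caput to corpus interaction ranged from -0.73 to 0.0619 (miR-142a-5p) and -0.15 to 1.32 (miR-223-3p), and the corpus to cauda interaction from -0.13 to 1.79 (miR-155-5p).

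In epithelial libraries of 89039 to 362867 counts, miR-142-3p, miR-155-5p and miR-223-3p had 10 counts or fewer each and were not tested between regions within epithelial cells. Their ranges in the interactions above are given for completeness and rest on these counts.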
